A study of Bos taurus with 44 samples.

Results

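TIMP1, TIMP2 and TIMP3 are the tissue inhibitors of metalloproteinases that the arrays measured in the endometrium of cattle. Their probes were chosen by the gene symbol in the supplied annotation: 1 probe each for TIMP1 and TIMP3 and 2 probes for TIMP2, which is 3 of the 8073 genes measured and 4 of the 13824 probes on the array. No probe carried the symbol TIMP4. Each probe was printed as 2 adjacent spots, which were averaged, and all 4 probes had a value on all 44 arrays. The 2 spots of a TIMP probe correlated over the 44 arrays with r between 0.942 (TIMP3) and 0.994 (the first TIMP2 probe), so the spot pairs gave nearly the same reading. The 2 TIMP2 probes, called probe 1 and probe 2 in the order of the array, carry the same gene number, and what part of the transcript each of them matches is not given in the sources used here.

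Matrix metalloproteinases (MMPs) are secreted or membrane-bound enzymes that cut collagens, other matrix proteins and some signalling proteins, and the TIMPs bind their active site and block them. TIMP1 is induced by growth factors and cytokines and is secreted. TIMP2 also takes part in the activation of MMP2 at the cell surface, where it bridges pro-MMP2 to the membrane enzyme MMP14. TIMP3 stays bound to the matrix and inhibits several ADAM and ADAMTS proteases as well. In ruminants the endometrium is remodelled during the cycle and when the conceptus attaches, and interferon tau from the conceptus acts on it in early pregnancy.

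The study compared endometrium of animals after artificial insemination (AI), after transfer of embryos fertilised in vitro (IVF-ET) and after transfer of clones made from body cells by nuclear transfer (SCNT), and of CJ animals, for which the labels give the word cycle as description. Caruncles are the raised sites of placental attachment, and the intercaruncular endometrium between them carries most of the glands. Each array set 2 RNA samples against each other in 2 dyes, Cy3 and Cy5. In the intercaruncular area, 10 arrays set 5 SCNT animals against 5 CJ animals and 10 arrays set 4 AI animals against the same CJ animals. IVF-ET and AI were set against each other on 10 arrays in each area, with 5 animals per group, 3 of the AI animals and all of the IVF-ET animals being in both areas. Caruncular SCNT and AI were compared as pooled RNA: 2 pairs of pools, each hybridised in both dye orders, gave 4 arrays, and the number of animals in a pool is not given. AI animals set against IVF-ET are named IAT, the others IAJ, and no animal carries both names. The sources used here do not give the age, the breed or the day of collection.

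The deposited values are log2 ratios of the 2 dyes, so a difference of 1 stands for a 2-fold difference, and they hold no level that could be set against that of another gene. Differences were estimated with limma over all probes. Apart from the pools, the fits used single arrays and 1 correlation, shared by all probes, between arrays of the same animal. A probe was called where its p, adjusted over all probes tested by the Benjamini-Hochberg method, was under 0.05. Errors are standard errors (SE) from that model. The correlation was estimated at 0 for the intercaruncular IVF-ET arrays, so their SEs treat arrays as independent. It was 0.12 for the arrays with CJ. An SE can therefore be too small for a probe that differs more between animals than most probes do. The direction of the ratio is not labelled. It was read as Cy5 divided by Cy3, the likely direction, since this puts the interferon-stimulated genes RSAD2, ISG15, MX1 and MX2 higher and the oxytocin receptor OXTR lower in SCNT and AI than in CJ animals, as is known for early pregnancy in ruminants. Under the other reading every sign below turns. Array medians lay between -0.02 and 0.01, and the number of animals limits the precision.

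Of the animals set against CJ, 1 stood apart from its group. AI animal B4, which the labels name on 4 of the 10 AI arrays, had RSAD2 at -0.27 on the log2 scale relative to the mean CJ animal, where the other 3 AI animals had 5.19 to 6.08 and the 5 SCNT animals 4.90 to 6.23. Its level lay just below the CJ range of -0.26 to 0.20. ISG15 (-0.13), MX1 (-0.30) and MX2 (-0.03) in B4 lay within the ranges of the CJ animals too, and its OXTR (-1.20) lay between the CJ animals and the other AI animals. The TIMP differences from CJ and the counts of gene lists that include B4 are therefore given with and without this animal, as are some single genes; other AI values include it. B4 is on no array of SCNT with CJ, and the SCNT differences from CJ printed here stayed the same without it. Both groups of arrays with CJ share 1 fit and its spread, so SEs and calls in SCNT could change. Without B4, 27.5% of all probes were called in SCNT and 20.4% in AI against CJ.

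In intercaruncular endometrium the 3 inhibitors did not move together. TIMP1 and TIMP3 were lower and both TIMP2 probes higher in SCNT than in CJ animals, and TIMP1 was lower and TIMP2 probe 2 higher in AI than in CJ animals. Of the 4 probes, 4 were called in SCNT against CJ (2 higher, 2 lower), where 21.7% of all probes were called (10.4% higher and 11.3% lower). In AI against CJ 2 of the 4 were called (1 higher, 1 lower), against 15% of all probes (6.92% higher and 8.08% lower). Both comparisons share the 5 CJ animals, so they are not independent of each other.

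**Figure D1:**
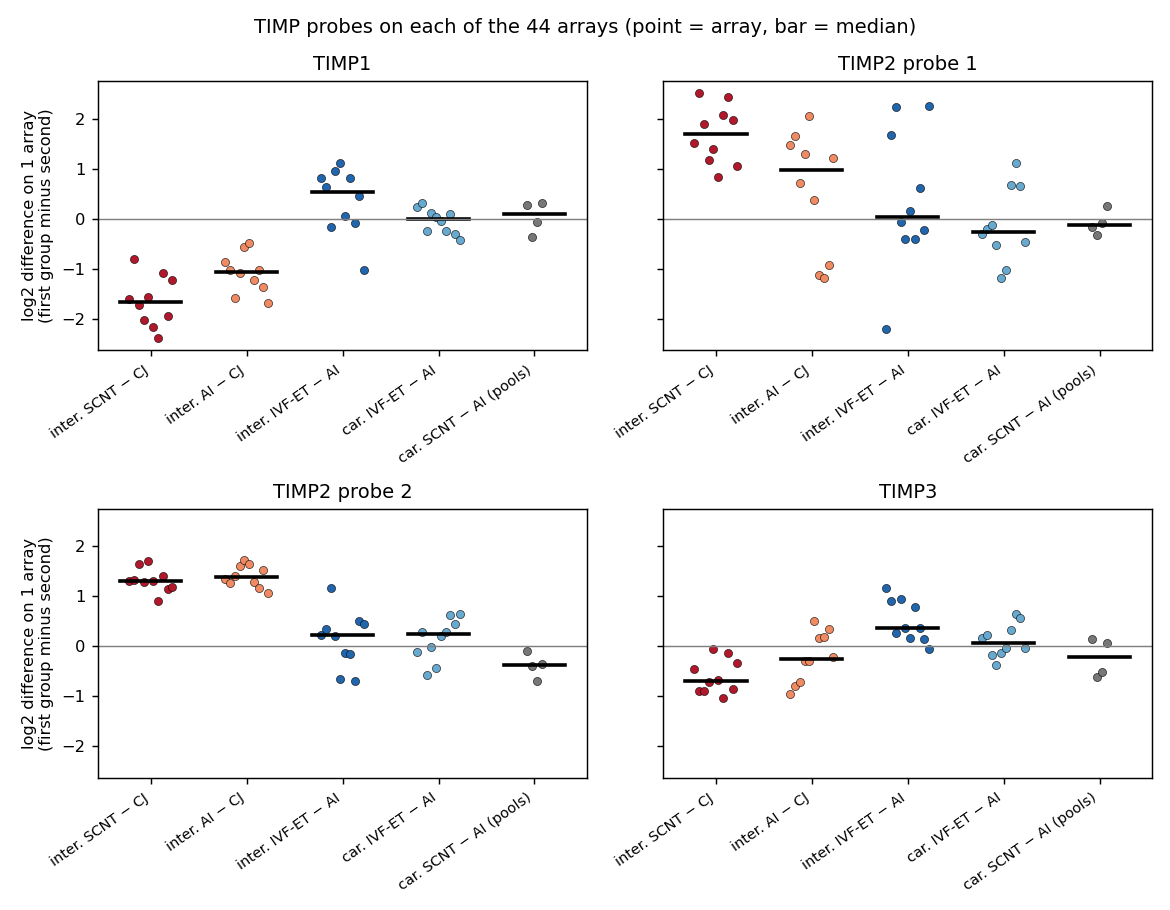
Log2 difference of each TIMP probe on every array (vertical axis, first group minus second) in the 5 array groups (horizontal axis; inter. is intercaruncular, car. caruncular). Points are arrays and bars medians. All 10 SCNT with CJ arrays lie below 0 for TIMP1 and TIMP3 and above 0 for both TIMP2 probes, while TIMP2 probe 1 spans -1.19 to 2.06 on the arrays of AI with CJ.

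TIMP1 was the inhibitor with the clearest fall. On the 10 arrays of SCNT with CJ, its log2 difference was -2.39 at the lowest, -1.66 at the median and -0.80 at the highest. No array reached 0. The fitted difference was -1.65 ± 0.15 (SE, 5 SCNT and 5 CJ animals, 95% confidence interval -1.96 to -1.35, limma adjusted p = 1.27e-07), a level 3.15-fold lower. By p it ranked 23 of the 13824 probes. On the 10 arrays of AI with CJ, the lowest, median and highest values were -1.69, -1.07 and -0.49, again all below 0. That difference was -1.10 ± 0.15 (4 AI and 5 CJ animals, 2.14-fold lower, limma adjusted p = 4.26e-05).

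Levels of single animals were estimated from the same 20 arrays, with the mean CJ animal at 0. For TIMP1 the CJ animals lay at 0.58 (B5), -0.19 (B7), -0.11 (B8), -0.46 (B808) and 0.17 (B857). The AI animals lay at -1.11 (B2), -1.29 (B3), -1.16 (B4) and -0.77 (B6), and the SCNT animals at -1.49 (B811), -1.74 (B873), -1.54 (B888), -1.48 (B902) and -2.01 (B904). The 3 groups did not overlap, with CJ highest, AI between and SCNT lowest. For this and the other TIMP probes, the share of all probes whose groups part in this way was not counted. Against CJ, 21.7% (SCNT) and 15% (AI) of all probes were called. The step from AI to SCNT, however, did not pass the test: SCNT minus AI was -0.55 ± 0.19 (95% confidence interval -0.95 to -0.16, limma adjusted p = 0.384), where the whole array had 0.282% of its probes called. AI animal B4, whose interferon-stimulated genes lay near the CJ level, had a TIMP1 level among those of the other AI animals. Without B4, AI minus CJ was -1.14 (adjusted p = 8.87e-05).

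**Figure D2:**
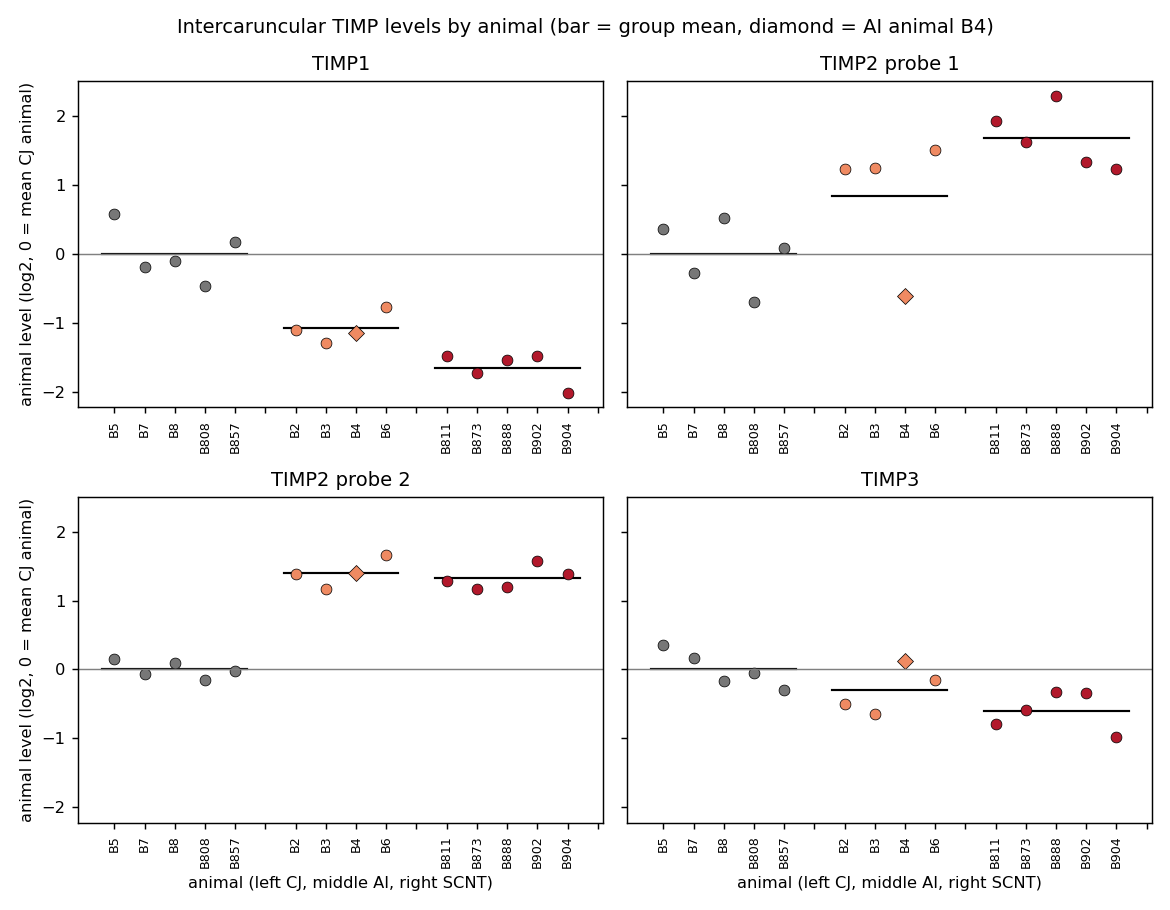
Level of each TIMP probe in the 14 animals of the intercaruncular arrays with CJ (vertical axis, log2, with the mean CJ animal at 0), from a fit over 20 arrays. Each point is an animal, bars are group means and the diamond is AI animal B4. For TIMP1 and TIMP2 probe 2 the diamond lies with the other AI animals, and for TIMP2 probe 1 and TIMP3 it lies among the CJ animals.

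TIMP2 rose, and its 2 probes agreed in direction in the SCNT animals and in AI animals B2, B3 and B6. In AI animal B4 they parted. Probe 2 was the steadier of the 2. It lay at 0.90, 1.31 and 1.71 (lowest, median and highest) on the arrays of SCNT with CJ and at 1.07, 1.38 and 1.73 on those of AI with CJ, so that no array of either kind came near 0. The fitted differences were 1.32 ± 0.08 in SCNT (95% confidence interval 1.15 to 1.50, 2.50-fold higher, limma adjusted p = 1.56e-09, rank 4 by p) and 1.40 ± 0.09 in AI animals (95% confidence interval 1.22 to 1.58, 2.65-fold higher, limma adjusted p = 1.84e-09, rank 2). SCNT and AI animals differed by -0.08 ± 0.11 (95% confidence interval -0.31 to 0.14, adjusted p = 0.985).

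By animal, probe 2 lay between -0.16 and 0.15 in the 5 CJ animals. It lay at 1.38 (B2), 1.17 (B3), 1.40 (B4) and 1.66 (B6) in the AI animals and between 1.17 and 1.58 in the SCNT animals. The AI and SCNT animals overlapped and lay far above the CJ animals, whose whole range was 0.31. B4 was in the middle of the AI animals, and AI minus CJ without it was again 1.40 (adjusted p = 3.35e-08).

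Probe 1 lay at 0.83, 1.70 and 2.51 (lowest, median and highest) on the arrays of SCNT with CJ, a fitted difference of 1.68 ± 0.28 (95% confidence interval 1.10 to 2.26, 3.21-fold higher, limma adjusted p = 0.000137). On the arrays of AI with CJ it lay at -1.19, 0.97 and 2.06, and 7 of 10 were above 0. The fitted difference of 0.65 ± 0.29 (95% confidence interval 0.05 to 1.25) did not pass the test (limma adjusted p = 0.153). All 3 arrays below 0 were those of AI animal B4: -1.14 and -1.19 against CJ animal B8 in the 2 dye orders and -0.93 against B857. The other array of B4, against B808, gave 0.38.

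As animal levels, probe 1 lay at 1.23 (B2), 1.25 (B3) and 1.51 (B6) in 3 of the AI animals and at -0.61 in B4, which is near the lowest CJ animal (B808, -0.69). The 5 CJ animals reached up to 0.53 and the SCNT animals lay between 1.23 and 2.30. Since B4 is on 4 of the 10 arrays, it weighs more in the fit than in the mean of the 4 AI animals, which was 0.85 ± 0.98 (SD). Without B4, AI minus CJ was 1.40 ± 0.20 and was called (adjusted p = 6.58e-05). Without CJ animal B8 it was called too, at 0.98 (adjusted p = 0.0109), and in the other 12 fits without 1 animal it was not. SCNT minus AI was 1.03 ± 0.36 (95% confidence interval 0.28 to 1.78, adjusted p = 0.399) with B4 and 0.28 ± 0.25 (adjusted p = 1.000) without it.

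**Figure D3:**
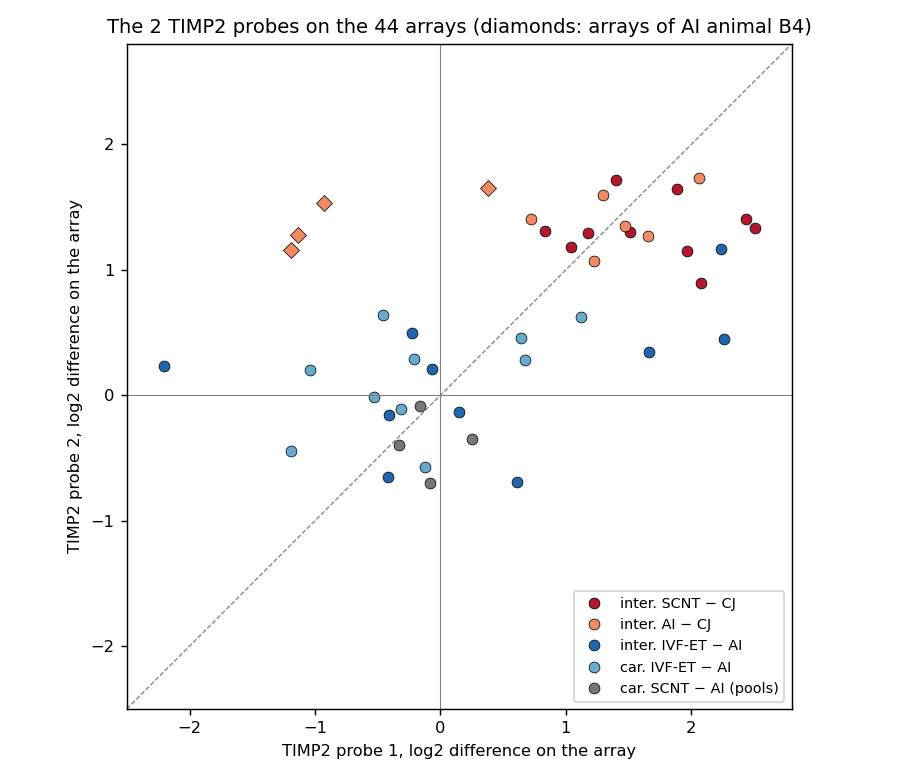
TIMP2 probe 1 (horizontal axis) against TIMP2 probe 2 (vertical axis) on the 44 arrays, both as log2 differences of the first group minus the second, coloured by array group; the dashed line marks equal values. Diamonds are the 4 arrays of AI animal B4, on which probe 2 lies between 1.16 and 1.65 while probe 1 lies between -1.19 and 0.38.

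TIMP3 had the smallest change. On the arrays of SCNT with CJ it lay at -1.04, -0.69 and -0.05 (lowest, median and highest), and the fitted difference was -0.60 ± 0.14 (95% confidence interval -0.89 to -0.31, 1.52-fold lower, limma adjusted p = 0.00327). Its rank of 1380 by p places it well behind TIMP1 and TIMP2 probe 2. On the arrays of AI with CJ it lay at -0.96, -0.26 and 0.51, with 6 of 10 below 0, and the difference of -0.25 ± 0.15 did not pass the test (95% confidence interval -0.55 to 0.05, adjusted p = 0.332). By animal, CJ lay between -0.30 and 0.36. The AI animals lay at -0.50 (B2), -0.65 (B3), 0.12 (B4) and -0.15 (B6) and the SCNT animals between -0.98 and -0.32. AI and CJ overlapped, and the highest SCNT animal lay just below the lowest CJ animal. The arrays above 0 in AI with CJ were again those of B4 (0.16 to 0.51), and without B4 the AI difference was -0.55 ± 0.13 and was called (adjusted p = 0.00544). SCNT minus AI was -0.35 ± 0.18 (95% confidence interval -0.73 to 0.03, adjusted p = 0.699) with B4 and -0.05 ± 0.17 without it.

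In SCNT against CJ all 4 probes were called in all 14 fits with 1 animal left out. Left out in turn were 5 SCNT, 5 CJ and 4 AI animals. No AI animal is on an array of SCNT with CJ, and no SCNT animal is on an array of AI with CJ. Fits without such an animal therefore say little about whether a difference rests on single animals, here and in the counts of fits below. TIMP1 ranged from -1.75 to -1.49, TIMP2 probe 1 from 1.55 to 1.82, TIMP2 probe 2 from 1.27 to 1.38 and TIMP3 from -0.67 to -0.52. In AI against CJ, TIMP1 (-1.23 to -0.99) and TIMP2 probe 2 (1.34 to 1.46) kept theirs in all 14.

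The arrays measured bulk tissue, in which fewer cells of a type and less RNA per cell cannot be told apart, and markers of several cell types moved in the same comparisons. Beside the counts below, 10.4% of all probes rose and 11.3% fell in SCNT, and 6.92% rose and 8.08% fell in AI animals. Leaving out B4 gave 27.5% (SCNT) and 20.4% (AI) of all probes called in either direction. Of 7 measured stromal markers, 6 fell and 0 rose in SCNT against CJ. In AI against CJ 3 fell, the collagen genes COL1A1, COL1A2 and COL3A1, and the median of all 7 markers was -0.94. Without B4, all 7 were lower in SCNT and 6 of 7 in AI against CJ, where VIM, DCN and LUM were then called too and the median was -2.08. Mean stromal marker levels lay between -2.06 and -1.67 in the SCNT animals, between -0.64 and 0.37 in the CJ animals, and between -2.03 and 0.45 in the AI animals, the highest being B4. Of 6 smooth muscle markers 5 fell in SCNT and 3 in AI against CJ, with mean levels of -1.92 to -1.40 (SCNT), -1.82 to -0.50 (AI, the highest again B4) and -0.45 to 0.39 (CJ). Without B4, 5 of these 6 were lower in SCNT and 4 in AI against CJ. Of 6 macrophage markers, C1QA, C1QB and C1QC rose in both comparisons, and the mean level was 0.48 to 0.98 in SCNT, 0.49 to 0.71 in AI and -0.27 to 0.16 in CJ animals. B4 had 0.63 for the macrophage markers, as the other AI animals did. Of 8 epithelial markers 3 rose and 1 fell in SCNT against CJ, and 2 rose in AI against CJ; without B4 the counts were 4 higher and 1 lower in SCNT and 2 higher and 1 lower in AI animals. Trophoblast markers (4 of 7 higher in SCNT, 0 called in AI) had mean levels, over the 6 of them with a value on each array, of 0.03 to 1.35 in SCNT against -0.12 to 0.10 in CJ animals. The part of these cell types in the TIMP differences was not tested.

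Families of enzymes with members that TIMPs inhibit were taken from lists of the pathway. Of 22 MMP genes listed, 12 had a probe. Against CJ, 2 of the 12 fell and 0 rose in SCNT animals (median -0.18, against 0.01 for all probes) and 1 fell and 0 rose in AI animals (median -0.06). Over all probes 11.3% fell in SCNT and 8.08% in AI animals, so that both MMP counts lay near the share of the whole array. MMP7, matrilysin, an epithelial enzyme with no hemopexin domain, fell by 1.94 ± 0.20 in SCNT (limma adjusted p = 9.55e-07) and by 1.34 ± 0.21 in AI animals (adjusted p = 0.000162), and both calls held in all 14 fits without 1 animal. For calls held in fewer of these fits, the fit with the value nearest 0 is given. MMP7 lay at -0.88 in B4, the highest of the 4 AI animals. MMP19 fell by 0.55 ± 0.17 in SCNT animals (adjusted p = 0.0224), a call kept in 10 of the 14 fits, with -0.33 without CJ animal B5. MMP9, gelatinase B, lay at 0.07 ± 0.05 and 0.06 ± 0.05 and was not called.

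The AI differences of MMP2, gelatinase A, and MMP14, the partners of TIMP2 at the cell surface, depended on B4. Their SCNT differences were the same with and without B4, and only the SE narrowed. MMP2 differed by -1.37 ± 0.50 in SCNT (adjusted p = 0.0546) and by -0.13 ± 0.52 in AI animals (adjusted p = 0.961). By animal it lay between -0.73 and 0.76 in CJ, between -1.57 and -1.10 in SCNT, at -1.06, -2.01 and -1.26 in AI animals B2, B3 and B6, and at 2.34 in B4, above every CJ animal. MMP14 was likewise highest in B4, at 1.31, with the other AI animals between -0.84 and -0.29, against -0.31 to 0.41 in CJ animals. Without B4, MMP2 was lower by 1.37 ± 0.16 in SCNT and 1.77 ± 0.21 in AI animals (adjusted p = 4.59e-06 and 9.39e-06). MMP14 without B4 was lower by 0.71 ± 0.16 in SCNT and 0.69 ± 0.20 in AI animals (adjusted p = 0.00219 and 0.0214), and the MMP counts were then 4 of 12 lower in SCNT and 3 of 12 in AI animals (27.5% and 20.4% of all probes being called in either direction). The B4 sample thus held high MMP2 and MMP14 beside TIMP2 probe 1 at the CJ level and TIMP2 probe 2 at the AI level.

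Of 30 ADAM and ADAMTS genes listed, a group of proteases of which TIMP3 inhibits several, 11 had a probe. In SCNT against CJ 2 fell and 0 rose (median -0.05), and in AI against CJ 3 fell and 0 rose (median -0.01), beside 11.3% and 8.08% of all probes that fell. The SCNT count lay near that share. ADAMTS4, an aggrecan-cutting protease, fell by 1.15 ± 0.17 in SCNT and by 0.96 ± 0.18 in AI animals (limma adjusted p = 5.48e-05 and 0.000775). ADAM9 fell by 0.49 ± 0.10 and 0.52 ± 0.10 (adjusted p = 0.000754 and 0.000923). Both genes kept their calls in all 14 fits. ADAM17, the sheddase that releases TNF, fell in AI animals by 0.42 ± 0.12 (adjusted p = 0.0192), a call kept in 9 of the 14 fits, with -0.30 without CJ animal B7. ADAM10 and the aggrecanase ADAMTS1 were not called. Without B4, 3 of the 11 were lower in SCNT and 3 lower and 1 higher in AI animals, the last being ADAMTS1 (0.70 ± 0.15, adjusted p = 0.00231). Of all probes, 27.5% (SCNT) and 20.4% (AI) were then called in either direction.

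**Figure D4:**
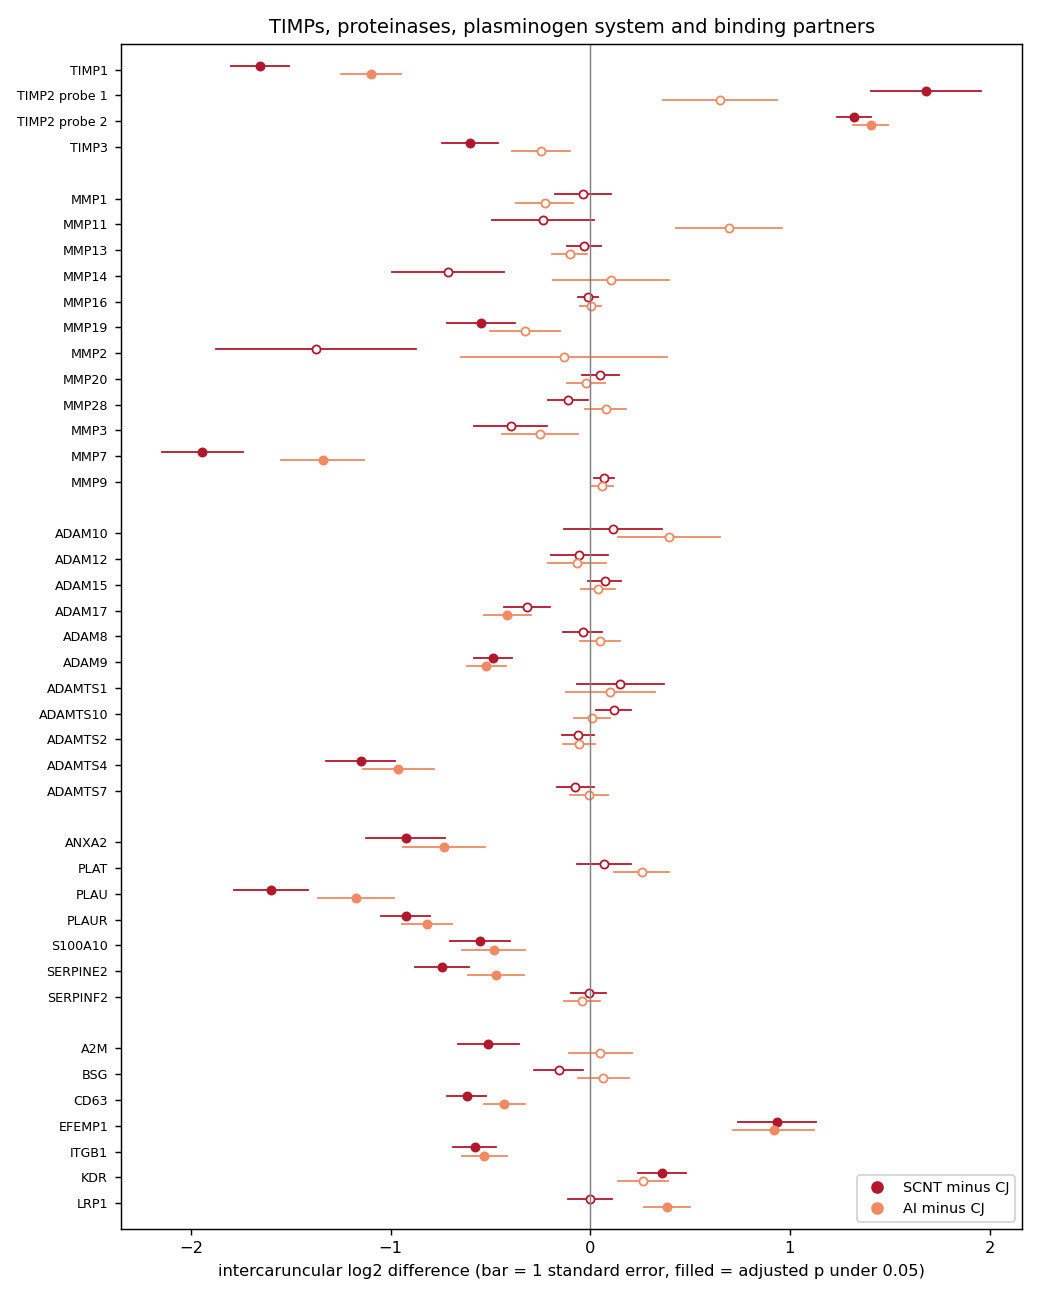
Intercaruncular log2 differences (horizontal axis) of the TIMP probes and, from top to bottom, of the measured MMPs, ADAM and ADAMTS proteases, plasminogen system genes and TIMP-binding or other inhibitor genes, for SCNT minus CJ and AI minus CJ. Bars are 1 standard error and filled points have an adjusted p under 0.05. Both TIMP2 probes and EFEMP1 lie well to the right, while TIMP1, MMP7, PLAU and ADAMTS4 lie to the left in both comparisons.

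The plasminogen system, whose serine protease plasmin activates several pro-MMPs, had 7 measured genes of 11 listed. Of these, 5 fell and 0 rose in both comparisons (medians -0.74 and -0.48), beside 11.3% of all probes lower in SCNT and 8.08% in AI animals. PLAU, the urokinase plasminogen activator, fell by 1.60 ± 0.18 in SCNT and 1.17 ± 0.19 in AI animals (limma adjusted p = 2.8e-06 and 0.000226). Its receptor PLAUR fell by 0.92 ± 0.12 and 0.82 ± 0.13 (adjusted p = 1.39e-05 and 0.000152). Both calls held in all 14 fits, B4 included among the low animals (PLAU -0.94, PLAUR -0.79). SERPINE2, an inhibitor of urokinase and thrombin, fell by 0.74 ± 0.13 in SCNT and by 0.47 ± 0.14 in AI animals, and the AI value was -0.26 without B4 and no longer called (12 of 14 fits). ANXA2, a plasminogen-binding surface protein, fell by 0.92 ± 0.20 and 0.73 ± 0.20, with an AI value of -1.22 without B4 and of -0.49 without AI animal B3, and its AI call held in 10 of 14 fits. Its partner S100A10, not among the genes the naming rule chose, fell by 0.55 ± 0.15 and 0.48 ± 0.16. S100A10 kept its call in 10 and 6 of the 14 fits, and without CJ animal B5 its values were -0.39 and -0.36. Without B4, 4 of the 7 were lower and 1, the tissue plasminogen activator PLAT, was higher in AI animals (0.44 ± 0.11, adjusted p = 0.00666). In SCNT animals 5 were again lower. The share of all probes called in either direction was then 27.5% in SCNT and 20.4% in AI animals.

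Of 10 genes for other inhibitors and proteins that bind TIMPs, 7 were measured. In SCNT against CJ 2 rose and 3 fell (median -0.16), and in AI against CJ 2 rose and 2 fell (median 0.07), where 21.7% and 15% of all probes were called. Without B4 the counts were 2 higher and 3 lower in SCNT and 1 higher and 2 lower in AI animals, where 27.5% and 20.4% of all probes were called. EFEMP1, fibulin-3, a matrix protein that binds TIMP3, rose by 0.94 ± 0.20 and 0.92 ± 0.20 (limma adjusted p = 0.00138 and 0.00333). CD63, a tetraspanin that serves as a surface receptor of TIMP1, fell by 0.62 ± 0.10 in SCNT (adjusted p = 9.83e-05) and by 0.43 ± 0.10 in AI animals (adjusted p = 0.00541). The SCNT call of CD63 held in all 14 fits and the AI call in 13, with -0.34 without CJ animal B7. ITGB1, the integrin beta 1 chain, a partner of CD63, fell by 0.58 ± 0.11 and 0.53 ± 0.11, and ITGB1 and EFEMP1 kept their calls in all 14 fits. A2M, a plasma protein that traps proteases of several classes, fell in SCNT animals (-0.51 ± 0.15, adjusted p = 0.0192, 9 of 14 fits, -0.37 without CJ animal B5) and lay at 0.05 ± 0.16 in AI animals. KDR, a VEGF receptor to which TIMP3 binds, lay at 0.36 ± 0.12 in SCNT animals (adjusted p = 0.0387) and kept its call in 4 of 14 fits, with 0.21 without CJ animal B808. LRP1, a scavenger receptor for protease and inhibitor complexes, rose in AI animals by 0.38 ± 0.11 (adjusted p = 0.0250, 8 of 14 fits, 0.29 without B4).

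Of 26 listed signals and transcription factors known to act on TIMP genes, 21 were measured. In SCNT against CJ 5 rose and 5 fell, and in AI against CJ 3 rose and 2 fell, with medians of -0.01 in both. Over all probes 10.4% rose and 11.3% fell in SCNT, and 6.92% rose and 8.08% fell in AI animals. Without B4, 5 of the list were higher and 6 lower in SCNT, and 4 were higher and 4 lower in AI animals. The share of all probes called in either direction was then 27.5% in SCNT and 20.4% in AI animals. The progesterone receptor PGR fell by 1.17 ± 0.12 in SCNT and 0.52 ± 0.13 in AI animals (limma adjusted p = 9.15e-07 and 0.00617), and the TNF receptor TNFRSF1A rose by 0.53 ± 0.08 and 0.49 ± 0.08 (adjusted p = 4.56e-05 and 0.000255). Both kept their calls in all 14 fits. TGFBR3, a co-receptor for TGF-beta, rose by 1.14 ± 0.23 and 0.87 ± 0.24, the latter 0.70 without CJ animal B5 and 1.41 without B4, with its AI call held in 7 of 14 fits. TGFB1, the ligand best known to induce TIMP1, fell by 0.57 ± 0.14 in SCNT animals (adjusted p = 0.00434, all 14 fits). The TGF-beta receptor TGFBR2 rose by 0.54 ± 0.13 and 0.46 ± 0.14, but its other probe differed from it, and its AI call was kept in 8 of 14 fits, with 0.36 without CJ animal B857. The other called members, named after their values were seen, were TGFB3 (-0.91 in SCNT and -0.76 in AI animals), FOS (-0.78), TGFB2 (-0.33), FOSL2 (0.41) and SP1 (0.28), the last 4 in SCNT animals. FOS kept its call in all 14 fits. The calls of TGFB3 in AI animals (4 of 14 fits, -0.57 without AI animal B3), TGFB3 in SCNT animals (11 of 14, -0.72 without CJ animal B5), TGFB2 (10 of 14, -0.26 without CJ animal B8), FOSL2 (12 of 14, 0.36 without SCNT animal B873) and SP1 (9 of 14, 0.20 without CJ animal B857) depended on single animals. The interleukins IL1A, IL1B and IL6 and the factors JUN, ETS1 and STAT3 were not called. Without B4, ETS1 was called lower in both (-0.25 in SCNT and -0.37 in AI animals, adjusted p = 0.0443 and 0.0267), and in AI animals TGFB2 (-0.30), FOSL2 (0.44) and SP1 (0.32) were called while TGFBR2 was not.

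In the gene table of assembly ARS-UCD2.0, TIMP1 overlaps the synapsin gene SYN1, TIMP3 overlaps SYN3 and TIMP2 overlaps CEP295NL. The probe of SYN1 lay at 0.02 ± 0.07 in SCNT and at -0.07 ± 0.07 in AI against CJ (limma adjusted p = 0.915 and 0.696). Ratios do not show whether SYN1 was expressed here. A gene that is not expressed would also lie near 0, so these values cannot tell whether SYN1 changed with TIMP1. The other overlapping genes were not used here.

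**Figure D5:**
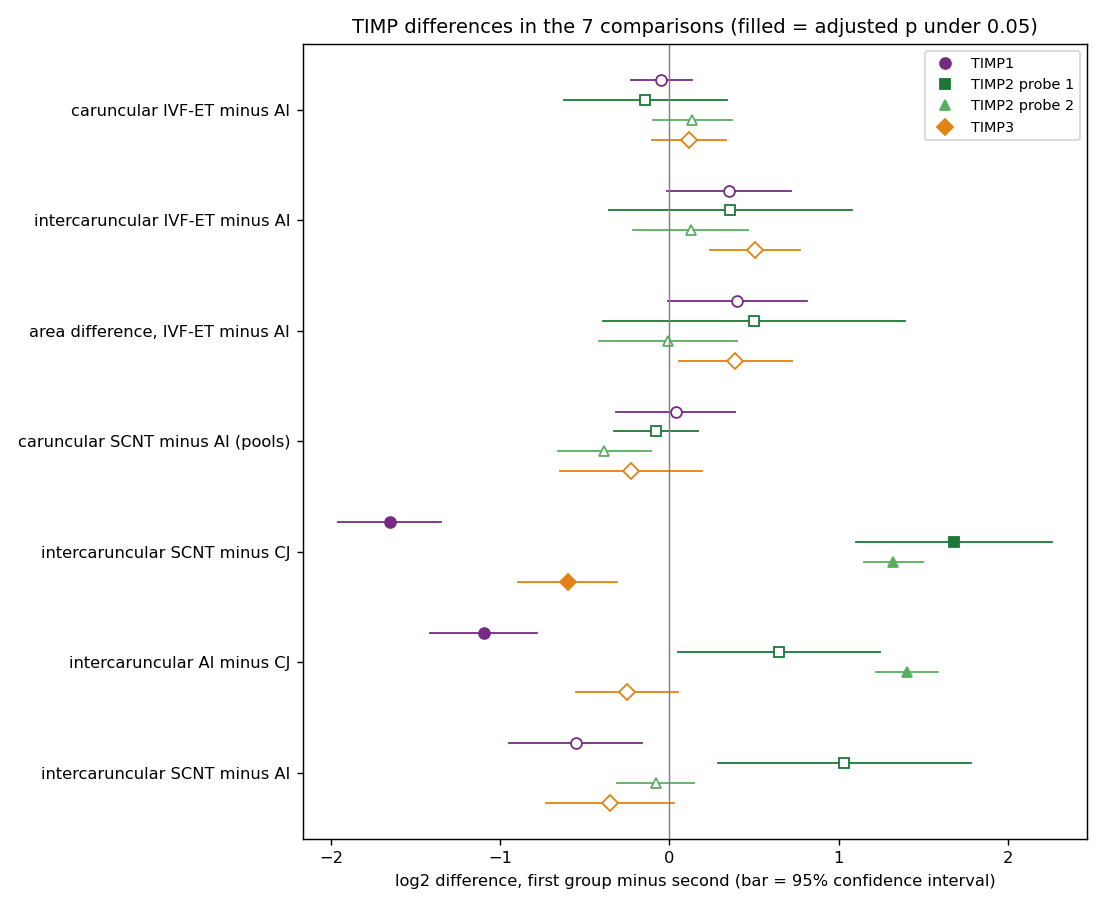
Log2 differences of the 4 TIMP probes (horizontal axis, first group minus second) in the 7 comparisons, with 95% confidence intervals as bars and filled symbols where the adjusted p is under 0.05. Filled symbols appear in the comparisons with CJ alone; in intercaruncular IVF-ET minus AI the interval of TIMP3 runs from 0.24 to 0.77 and its symbol is open.

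Between IVF-ET and AI no TIMP probe was called in either area. In the intercaruncular area, where 0.00724% of all probes were called, TIMP3 had the smallest p of the 4. Its 10 arrays lay at -0.05, 0.36 and 1.16 (lowest, median and highest), and 9 of 10 were above 0. The fitted difference was 0.51 ± 0.12 (5 IVF-ET and 5 AI animals, 95% confidence interval 0.24 to 0.77, limma p = 0.00130 before and 0.332 after adjustment). In this comparison 1285 of 13816 probes had an unadjusted p under 0.05. The difference of TIMP3 ranked 52 by p and ranged from 0.37 (without AI animal B98095) to 0.62 (without AI animal B98070) when 1 animal was left out. TIMP1 lay at -1.03, 0.54 and 1.11, with a difference of 0.35 ± 0.17 (95% confidence interval -0.01 to 0.72, adjusted p = 0.565). TIMP2 probe 2 differed by 0.13 ± 0.16 (-0.69 to 1.17 over the arrays, adjusted p = 0.844).

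TIMP2 probe 1 was not called and had the widest spread of the 4 probes in this loop. Its arrays ran from -2.20 to 2.26 around a median of 0.04, and both extremes were arrays of the same IVF-ET animal, B99111, set against AI animal B98095 (-2.20) and against AI animal B98070 (2.26). The fitted difference was 0.36 ± 0.33 (95% confidence interval -0.36 to 1.08, adjusted p = 0.779). These 2 arrays had opposite dye orders, so that as Cy5 over Cy3 they read alike (-2.20 and -2.26). Through them AI animal B98070 minus B98095 came to -4.46, and through the other 8 arrays of the loop to 1.17. A dye effect was not taken out of either value and enters the 2 routes with opposite signs. These raw values therefore do not show the order of the 2 animals. The mean of probe 1 was -0.20 on the 5 arrays with IVF-ET in Cy5 and 0.92 on the 5 with IVF-ET in Cy3. In a closed loop the gap between the 2 routes follows from the gap between these means, so it is no separate observation. For TIMP1 the 2 routes, again with any dye effect left in, gave 1.85 and -0.65. Its means were 0.60 with IVF-ET in Cy5 and 0.10 with IVF-ET in Cy3. The group difference averages both dye orders equally.

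In caruncular tissue 0.0217% of all probes were called between IVF-ET and AI. The array values of TIMP1 ran from -0.42 to 0.31, of TIMP2 probe 1 from -1.19 to 1.12, of TIMP2 probe 2 from -0.57 to 0.64 and of TIMP3 from -0.37 to 0.64, each on both sides of 0. The differences were -0.05 ± 0.08 for TIMP1 (95% confidence interval -0.23 to 0.13), -0.14 ± 0.22 for TIMP2 probe 1 (-0.63 to 0.34), 0.14 ± 0.11 for TIMP2 probe 2 (-0.10 to 0.37) and 0.12 ± 0.10 for TIMP3 (-0.11 to 0.34). Their adjusted p values lay between 0.721 and 0.871. The interval of TIMP1 was the narrowest of the 4 and that of TIMP2 probe 1 the widest.

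The loops allowed a test of whether the IVF-ET difference itself depended on the area (0.00723% of all probes called). For TIMP1 the intercaruncular difference exceeded the caruncular one by 0.40 ± 0.20 (95% confidence interval -0.01 to 0.81) and for TIMP3 by 0.39 ± 0.16 (0.06 to 0.72), with an adjusted p of 0.757 for both. TIMP2 probe 1 (0.50 ± 0.43) and probe 2 (-0.01 ± 0.20) were not called either. The same IVF-ET and AI animals met in the same dyes in both areas on 6 pairs of arrays, which share animals among them and also the dye order, so that a dye effect on a probe would stand in both areas. TIMP1 had the same sign in both areas on 1 of these 6 pairs. For IVF-ET animal B9073 against AI animals B99035 and B9109 it lay at -0.42 and -0.31 in the caruncles but at 1.11 and 0.94 between them.

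TIMP2 probe 1 had the same sign in both areas on 4 of the 6 pairs, and its 3 largest intercaruncular values had caruncular values of the same sign: -2.20 with -1.04 (B99111 against B98095), 2.24 with 1.12 (B99058 against B9109) and 1.66 with 0.67 (B99058 against B98095). TIMP2 probe 2 had the same sign on 5 of 6 pairs, its largest intercaruncular value, 1.17, being that of B99058 against B9109 (0.62 in the caruncles). TIMP3 had the same sign on 4 of 6 pairs, and its largest intercaruncular value, 1.16 for B99111 against B98095, stood beside -0.03 in the caruncles.

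In the caruncular pools of SCNT and AI no probe of the array was called (0% of 13824, with 1744 at an unadjusted p under 0.05 in limma), and 2 pairs give little power. TIMP2 probe 2 lay below 0 on all 4 arrays (-0.70 to -0.09), with pair means of -0.55 and -0.22 and a difference of -0.38 ± 0.11 (95% confidence interval -0.66 to -0.11, limma adjusted p = 0.279). The pair means were -0.22 and 0.29 for TIMP1 (difference 0.04 ± 0.14), -0.21 and 0.04 for TIMP2 probe 1 (-0.08 ± 0.10), and -0.56 and 0.10 for TIMP3 (-0.23 ± 0.17). These 3 changed sign between the pairs, and their adjusted p values lay between 0.655 and 0.954. The median of the measured trophoblast markers was 1.30 in these pools, with 0 of them called, and its part in the TIMP values was not tested.

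How alike the TIMP probes were over the 44 arrays was described by the uncentred correlation, which does not change when an array is turned. The arrays share animals, and the 20 arrays with CJ carry most of the large values. TIMP1 ran against TIMP2 probe 2 (-0.81) and probe 1 (-0.61) and with TIMP3 (0.67), and the 2 TIMP2 probes reached 0.63 with each other and the same sign on 32 of 44 arrays. On the 10 arrays of SCNT with CJ the 2 TIMP2 probes reached 0.93, on those of AI with CJ 0.46, on those of intercaruncular IVF-ET with AI 0.46 and on those of caruncular IVF-ET with AI 0.41. TIMP1 and TIMP3 reached 0.77 on the intercaruncular arrays of IVF-ET with AI and -0.10 on the caruncular ones.

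Each probe had other genes nearest to it among the 8066 genes with a value on all 44 arrays. The 5 genes most like TIMP1 were GPALPP1 (0.93), CAVIN3, a protein of caveolae (0.91), MMP7 (0.91), the mesenchymal transcription factor SNAI2 (0.91) and MAGED1 (0.91), and the 3 least like it were the glucose transporter SLC2A1 (-0.87), the cyclin CCND3 (-0.86) and DDAH2 (-0.85). MMP7 is itself among the enzymes that TIMPs inhibit. TIMP2 probe 1 was nearest to EPAS1, the hypoxia-inducible factor 2 alpha (0.93), EGLN1, a prolyl hydroxylase that marks such factors for breakdown (0.88), MS4A8 (0.88), the transaminase GPT2 (0.87) and CCN2, connective tissue growth factor (0.86). Farthest from it were EVA1B (-0.88), the smooth muscle calponin CNN1 (-0.88) and the collagen gene COL1A2 (-0.88).

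EPAS1 and TIMP2 probe 1 shared the split between the groups and the place of B4 in the fit with CJ. The order of the other AI animals and of the SCNT animals differed between EPAS1 and the probe. Among the CJ animals the order was the same except that B5 and B857 changed places. EPAS1 lay at 1.52 (B2), 1.31 (B3), -0.47 (B4) and 1.16 (B6) in the AI animals, between 1.58 and 2.10 in the SCNT animals and between -0.73 and 0.87 in the CJ animals. EPAS1 rose by 1.81 ± 0.30 in SCNT against CJ (adjusted p = 0.000133) and lay at 0.71 ± 0.31 in AI against CJ (adjusted p = 0.145), or at 1.54 ± 0.21 without B4 (adjusted p = 3.55e-05). The choice of EPAS1 by its likeness to the probe makes this a description.

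TIMP2 probe 2 had different neighbours. The 5 most like it were IRF2BP2, a co-repressor (0.87), the complement gene C1QC (0.86), YPEL3 (0.85), LRP10 (0.85) and the basement membrane proteoglycan AGRN (0.85). The 3 least like it were FKBP11 (-0.92) and SEC61B (-0.91), which act in the folding and import of secreted proteins in the endoplasmic reticulum, and SNAI2 (-0.92). SNAI2 was thus near TIMP1 and opposite to TIMP2 probe 2, and in B4 it lay at -1.98, against -3.14 to -2.39 in the other AI animals and -0.33 to 0.53 in CJ. The 5 genes most like TIMP3 were LASP1 (0.86), MCAM, an adhesion molecule of vessel walls (0.84), the actin-binding proteins PALLD (0.84) and FLNA (0.81) and the laminin chain LAMB1 (0.81). Farthest from it were QPRT, an enzyme of NAD synthesis (-0.83), CRBN, cereblon (-0.82), and RIMKLB (-0.76).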

How the data were processed

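Two-colour arrays of cattle endometrium were analysed from the table of the authors, which per the labels' protocols came from column-purified Trizol RNA copied from oligo-dT primers and coupled to Cy3 and Cy5. The deposited unit is the log2 ratio per spot: of 331 values below -4, 100% equalled log2 of a ratio with 4 decimals, against 0.906% for the natural log and 0% for log10. The sources used here do not give the background correction or the normalization, and none was added. Spots of a probe were averaged. limma 3.58.1 in R 4.3.3 was run by generalised least squares, with terms for group and dye and a shared correlation between arrays of the same animal (0.13, 0 and 0.12 in the separate fits of caruncular IVF-ET, intercaruncular IVF-ET and CJ arrays). The pools were tested as pair means against 0. A probe needed values on 80% or more of a fit's arrays. The code was tested on simulated data. The TIMP members and the gene lists were chosen with earlier results of these data known. Genes were named as the list members past the threshold, at most 4 per list and comparison by adjusted p, with MMP2, MMP9 and MMP14, and the 5 most and 3 least like genes of each TIMP probe; of several probes, the one with the fewest missing values stood for a gene.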

Additional observations from a re-analysis of the deposited data

Results flagged for a closer look

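Of 32 groups of 4 to 10 TIMP values examined for a value far from the rest, 1 had such a value, where chance flags about 1 in 20 groups. It was the level of TIMP2 probe 1 in AI animal B4, -0.61 on the log2 scale relative to the mean CJ animal, against 1.23 in the nearest of the other 3 AI animals. The gap was 0.866 of the range of the 4 animals, above Dixon's 95% critical value for 4 values. In the same animal TIMP2 probe 2 lay at 1.40, within the range of the other AI animals.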

How the results depend on the processing

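The alternatives were no dye term, no correlation between arrays, array weights, centring, scaling, either spot alone, probes with every value, only 1 group's arrays with CJ, an animal block across areas, the 4 pool arrays as separate values, and leaving out each animal or pair; the list counts and EPAS1 without B4 were added after seeing the data. Signs and calls of the 4 probes in SCNT against CJ held under all of them. Exceptions elsewhere were as follows. TIMP1 in caruncular IVF-ET minus AI turned to 0.0072 with array weights, TIMP1 in the pools to -0.056 with the second spot alone, and the area difference of TIMP2 probe 2 to 0.055 with the second spot alone. TIMP2 probe 1 in AI minus CJ was called with array weights, at 0.82 (adjusted p = 0.0332). Probes called in intercaruncular IVF-ET minus AI were 2 with no dye term, 4 with weights and 0 with scaling or the first spot. In caruncular IVF-ET minus AI they were 0 with scaling or the first spot and 1 with the second. For the area difference there were 0 with scaling. In the pools there were 16 with centring, 1 with scaling, 94 and 2 with the first and second spot, and 257 with 4 separate arrays. For the animal block across areas the correlation was estimated at 0, so that this fit equals the reported one. Leaving out 1 animal gave ranges in caruncular IVF-ET minus AI of -0.14 to 0.035 (TIMP1), -0.40 to 0.10 (TIMP2 probe 1) and -0.0016 to 0.21 (TIMP3). In intercaruncular IVF-ET minus AI they were -0.039 to 0.52 (TIMP2 probe 1) and -0.031 to 0.26 (probe 2), and for the area difference of probe 2 -0.13 to 0.18. In AI minus CJ they were 0.39 to 1.40 (probe 1) and -0.55 to -0.10 (TIMP3), and in SCNT minus AI -0.15 to 0.0022 (probe 2). Probes called then numbered 0 to 2 (caruncular IVF-ET), 0 to 0 (intercaruncular IVF-ET), 0 to 3 (area), 1286 to 2826 (AI minus CJ) and 8 to 53 (SCNT minus AI). Of the called list genes under the alternatives, 854 values kept their side of the threshold, 112 lost it and 0 reversed. The cause of these changes was not tested.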
